A study of Phyllostachys violascens with 6 samples.

Results

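Chalcone synthase (CHS) and chalcone isomerase (CHI) catalyze the entry into flavonoid biosynthesis. Chalcone synthase joins a coumaroyl-CoA with malonyl-CoA units and yields naringenin chalcone. Chalcone isomerase then closes the ring and yields naringenin, the flavanone from which flavones, flavonols and anthocyanins are made. Naringenin is also the precursor of prunin and rhoifolin, the flavonoids that the study examined in the bamboo internode. A chalcone can also close slowly without an enzyme, and plant genomes hold isomerase-like proteins that do not act on chalcones.

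The 3 unigenes described here are those that the study names PvCHS (Cluster-4806.23668), PvCHI2 (Cluster-4806.22360) and PvCHI1 (Cluster-4806.32441), selected by identifier from the 63776 unigenes of the deposited table. All 3 passed the filter on low counts. A unigene is a group of contigs assembled from the reads without a reference genome, so that these unigenes carry no chromosome position. The sources used here gave no sequence match for PvCHS and PvCHI2, whose names are the study's. PvCHI1 was listed with a best match to an anthocyanidin glucosyltransferase of rose and with UDP-glucosyl transferase domains, and no chalcone isomerase domain was listed for it. Its name therefore goes against its annotation, and PvCHI1 is used below only as the study's label for this unigene.

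RNA was sequenced from the internodes of wild type *Phyllostachys violascens* cv. Viridisulcata, with 3 libraries of the green sulcus, which is a groove along the internode, and 3 of the surrounding yellow culm. All libraries come from the longest internodes, taken on a single sampling day. The total counts lay between 16405396 and 22505338 per library, and values are given as CPM, the counts per 1000000 of that total. Of the light-harvesting antenna unigenes, which mark green tissue and which the study listed from its own comparison of these libraries, all 4 had a lower mean CPM in the culm. PvLhcb1.1, for example, lay between 1838 and 4218 CPM in the sulcus and between 669 and 1524 CPM in the culm, as the tissue labels give it. Of the 4, only PvLhcb2 overlapped between the tissues. It lay between 704 and 1064 CPM in the sulcus and between 283 and 706 CPM in the culm. In bulk tissue, fewer cells that express a gene and less RNA per cell cannot be told apart.

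PvCHS was expressed in all 6 libraries, with lower values in part of the sulcus libraries. Its counts were 2801, 3888 and 5082 in sulcus replicates 1, 2 and 3 and 5651, 4500 and 6102 in culm replicates 1, 2 and 3. Scaled to library size, PvCHS had 171, 200.1 and 275 CPM in the sulcus and 299, 226 and 271 CPM in the culm. The lowest values were those of sulcus replicates 1 and 2, whereas sulcus replicate 3 lay above 2 of the 3 culm libraries, so the tissues overlapped. The means were 215 ± 53.5 CPM in the sulcus and 265 ± 37.2 CPM in the culm (SD, n = 3 each), and the difference between them was smaller than the SD of the sulcus.

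PvCHI2, the other unigene that the study names a chalcone isomerase, took between 0.0778% and 0.106% of all counts of a library and did not separate the tissues. It had 829.7, 1042 and 948 CPM in sulcus replicates 1, 2 and 3 and 809, 1063 and 778 CPM in culm replicates 1, 2 and 3. The replicate 2 libraries were the highest of both tissues, and the culm values enclosed all sulcus values. The means were 939.9 ± 106 CPM in the sulcus and 883 ± 156 CPM in the culm (SD, n = 3 each). The highest library held 1.37 times the lowest for PvCHI2, against 1.75 times for PvCHS and 6.94 times for PvCHI1. In 3 of the 6 libraries the deposited count of PvCHI2 was not a whole number, so that a part of its reads may have been divided with a similar unigene. The counts of PvCHS and PvCHI1 were whole numbers in all 6 libraries.

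PvCHI1 was even in the sulcus and spread widely in the culm. Its counts were 204, 320 and 255 in sulcus replicates 1, 2 and 3, or 12.4, 16.5 and 13.8 CPM. In culm replicates 1, 2 and 3 the counts were 1333, 556 and 229, or 70.6, 27.9 and 10.2 CPM. Culm replicates 1 and 2 thus lay above every sulcus library, and culm replicate 3 lay below every sulcus library. The mean was 14.2 ± 2.05 CPM in the sulcus and 36.2 ± 31.1 CPM in the culm (SD, n = 3 each).

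**Figure D1:**
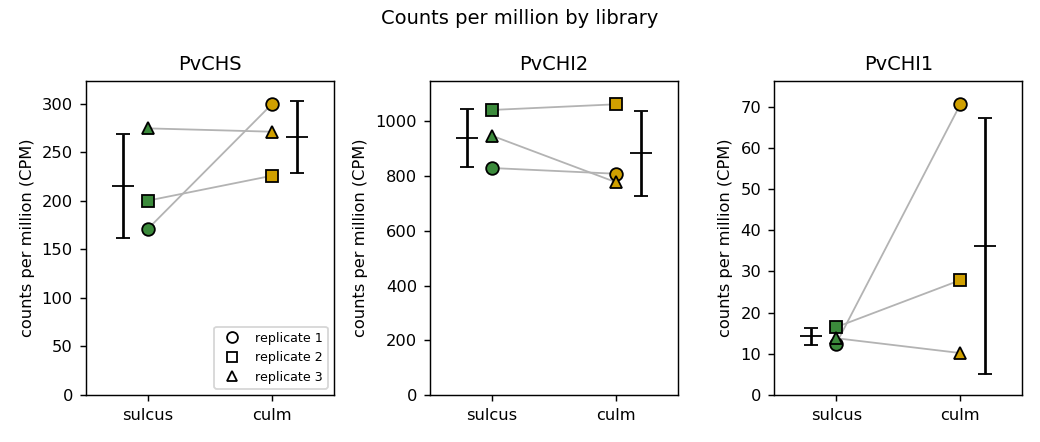
CPM of PvCHS, PvCHI2 and PvCHI1 in each library of sulcus (green) and culm (yellow), with the marker showing the replicate number, grey lines joining same-numbered libraries and black bars showing the mean and SD of 3 libraries. PvCHI2 stayed between 778 and 1063 CPM, while PvCHI1 reached 70.6 CPM in culm replicate 1 and was 10.2 CPM in culm replicate 3.

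The error from counting alone, as the square root of the count over the count, was between 0.687% and 0.857% for PvCHI2, between 1.28% and 1.89% for PvCHS and between 2.74% and 7.0% for PvCHI1. These figures cover counting error only and not the spread between libraries.

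The question of the comparison was whether the first flavonoid steps differ in expression between the green and the yellow tissue. In edgeR's quasi-likelihood test over all 31936 unigenes that passed the filter, 0 of the 3 unigenes were called (adjusted p under 0.05 with more than a 2-fold change), and the test called 0% of all unigenes in either direction. At an unadjusted p under 0.05, edgeR passed 0 of the 3, against 1.38% of all unigenes. DESeq2 also called 0 of the 3, against 0.0877% of all unigenes. PvCHI1 passed an unadjusted p under 0.05 in DESeq2 (log2 fold change 1.36), as did 1.39% of all unigenes. With limma voom, 0 of the 3 were called, as were 0 of all unigenes in either direction. At an unadjusted p under 0.05 limma voom passed 0 of the 3, and the share over all unigenes was not computed.

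PvCHS was 1.23 times as high in the culm as in the sulcus, with a 95% interval from 0.852 to 1.79 times. Its log2 fold change, culm minus sulcus, was 0.30, with a standard error of 0.22 and an adjusted p of 1.0 from edgeR. For PvCHI2 the ratio was 0.947 (95% interval 0.630 to 1.42) and the log2 difference −0.078 (standard error 0.25, adjusted p = 1.0 from edgeR). The intervals of this fit, which does not use the replicate number, leave room for a moderate change in either direction for both unigenes. They do not show that the tissues were alike. PvCHI1 had a ratio of 2.56 (95% interval 0.883 to 7.44) and a log2 difference of 1.36 (standard error 0.64, adjusted p = 1.0 from edgeR).

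The value of PvCHI1 rested on single culm libraries. Without culm replicate 1 its log2 fold change was 0.46 (standard error 0.46, unadjusted p = 0.356 from edgeR). Without culm replicate 3 it was 1.81 (standard error 0.38, adjusted p = 1.0 from edgeR, and 0.00341 before adjustment). Both libraries belong to the culm, and no label sets either of them apart. For PvCHS, leaving out sulcus replicate 1 gave 0.17 and leaving out sulcus replicate 3 gave 0.51. For PvCHI2 the log2 fold change moved to −0.29 when culm replicate 2 was left out and to 0.033 when culm replicate 3 was left out, so that its direction was not fixed.

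**Figure D2:**
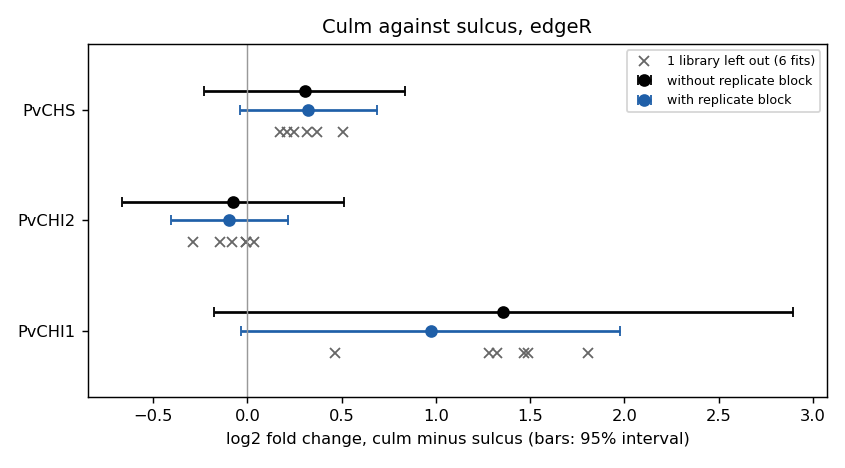
Log2 fold change, culm minus sulcus, of the 3 unigenes from edgeR without (black) and with (blue) the replicate number as a block, with 95% intervals, and from the 6 fits that leave out 1 library each (crosses, without the block). All 6 intervals include 0, and PvCHI1 moved from 1.36 to 0.46 without culm replicate 1.

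Libraries that share a replicate number deviated together from the means of their tissues over all unigenes, so they were also compared as pairs. PvCHS was higher in the culm in pair 1 by 0.81 on the log2 scale and in pair 2 by 0.17, while in pair 3 the tissues were nearly equal (−0.018). The first pair thus carried most of the difference, a ratio of 1.75 in pair 1 against 1.13 in pair 2 and 0.987 in pair 3. For PvCHI2 the differences were −0.037, 0.028 and −0.29, and the culm was higher in 1 pair only. For PvCHI1 they were 2.5, 0.76 and −0.44, and the culm was higher in pairs 1 and 2. The tissues overlapped for all 3 unigenes, as for most, since 2.46% of all unigenes tested lay wholly higher and 2.22% wholly lower in the culm. None of the 3 was on the same side of the sulcus in all pairs, while 15.9% of all unigenes tested were higher in the culm in every pair and 13.6% lower. These signs were the same when the libraries were scaled by TMM, the trimmed mean of log ratios. The 4 antenna unigenes also differed most in pair 1 and least in pair 3, with log2 differences for PvLhcb1.1 of −2.66, −1.97 and −0.27 in pairs 1, 2 and 3, and their part in the result was not tested.

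When the replicate number entered edgeR as a block, the intervals became narrower. The blocked test called 0 of the 3 unigenes, against 0.128% of all unigenes, and 0 of the 3 passed an unadjusted p under 0.05, against 7.82% of all unigenes. The log2 fold change of PvCHS was 0.32 (standard error 0.16, adjusted p = 0.695 from edgeR, and 0.0744 before adjustment). Its 95% interval ran from 0.973 to 1.61 times the sulcus level. The log2 fold change of PvCHI2 was −0.096 (standard error 0.14, unadjusted p = 0.502 from edgeR), and its 95% interval ran from 0.754 to 1.16 times the sulcus level. That of PvCHI1 was 0.97 (standard error 0.44, adjusted p = 0.656 from edgeR, and 0.0561 before adjustment). Exact two-sided permutation tests between the tissues on log2 CPM gave p = 0.3 for PvCHS, 0.6 for PvCHI2 and 0.4 for PvCHI1. These tests do not use the replicate number, and 3 libraries against 3 cannot give a p under 0.1.

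The 3 unigenes differed in where their variation lay. For PvCHI2, 77.9% of the variation in log2 CPM, as a sum of squares, lay between replicate numbers and 7.63% between tissues, close to the medians of all unigenes tested, 71.9% and 5.78%. For PvCHS the shares were 29.1% between replicate numbers and 32.1% between tissues, and for PvCHI1 33.8% and 25.0%. The rest comes from tissue differences that varied from pair to pair. It was the largest share for PvCHS (38.8%) and PvCHI1 (41.1%), against 14.5% for PvCHI2. A share between tissues larger than that of PvCHS was found in 12.7% of all unigenes, and one larger than that of PvCHI1 in 17.7%. The differences of PvCHI1 within the pairs had an SD of 1.48 on the log2 scale, and 97.8% of all unigenes had a smaller one. The corresponding SD of PvCHS was 0.43 and that of PvCHI2 0.17, against a median of 0.30 over all unigenes.

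The ratios of PvCHI2 and of PvCHI1 to PvCHS counts were computed in each library. The ratio needs no scaling to library size, and the length of the unigenes, which was not divided out, is the same in every library. It can thus be compared between libraries, but it does not give the ratio of transcripts. The ratio of PvCHI2 to PvCHS was 4.86, 5.21 and 3.45 in sulcus replicates 1, 2 and 3 and 2.70, 4.71 and 2.87 in culm replicates 1, 2 and 3. Culm replicates 1 and 3 had the lowest ratios, and culm replicate 2 lay within the range of the sulcus. The mean ratio was 4.51 ± 0.930 in the sulcus and 3.43 ± 1.11 in the culm (SD, n = 3 each).

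In each of the 3 pairs the culm had the lower ratio of PvCHI2 to PvCHS. The log2 differences within the pairs were −0.85, −0.15 and −0.27, or 0.556, 0.904 and 0.831 times the ratio in the sulcus. The mean difference was −0.42 with an SD of 0.37 over the 3 pairs. An exact two-sided permutation test between the tissues gave p = 0.2, or 0.4 adjusted by the Benjamini-Hochberg method over both ratios tested. The smallest possible p of this test is 0.1. It does not use the pairs, and the differences within the pairs were not tested. The ratio to PvCHS was lower in the culm in all 3 pairs for 28.8% of all unigenes tested, and on average it was lower by at least as much as for PvCHI2 for 32.1% of them. A lower ratio to PvCHS was therefore not particular to PvCHI2. Without culm replicate 1 alone the difference between the tissue means of the log2 ratio was −0.27, and without culm replicate 2 alone it was −0.67. The mean over pairs was −0.21 without pair 1 and −0.56 without pair 2.

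The ratio of PvCHI1 to PvCHS was 0.0728, 0.0823 and 0.0502 in sulcus replicates 1, 2 and 3 and 0.236, 0.124 and 0.0375 in culm replicates 1, 2 and 3. Culm replicates 1 and 2 were the highest and culm replicate 3 the lowest of all 6 libraries. On the log2 scale the culm was higher by 1.70 in pair 1 and by 0.59 in pair 2, and lower in pair 3 (−0.42). The mean difference of 0.62 had an SD of 1.06 over the pairs, and without pair 1 it was 0.084. The exact two-sided permutation test between the tissues, which does not use the pairs, gave p = 0.5 before and after adjustment over both ratios. Without culm replicate 1 alone the difference between the tissue means was 0.023. The counts of PvCHI1 and PvCHI2 were also summed, although the annotation of PvCHI1 is that of a glucosyltransferase, and the ratio of the sum to PvCHS lay between 3.50 and 5.29 in the sulcus and between 2.91 and 4.83 in the culm.

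The counts of PvCHI1 and PvCHI2 stood in nearly the same proportion in every sulcus library. The ratio of PvCHI1 to PvCHI2 was 0.0150, 0.0158 and 0.0145 in sulcus replicates 1, 2 and 3, and the 95% counting intervals of these 3 values overlapped. Both unigenes varied little there, with 1.32 times the lowest sulcus CPM in the highest sulcus library for PvCHI1 and 1.26 times for PvCHI2. The share of all unigenes with as even a ratio was not computed. In culm replicates 1, 2 and 3 it was 0.0873, 0.0262 and 0.0131. Culm replicate 3 thus had about the proportion of the sulcus, and the proportion in culm replicate 1 was 5.83 times that in sulcus replicate 1.

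**Figure D3:**
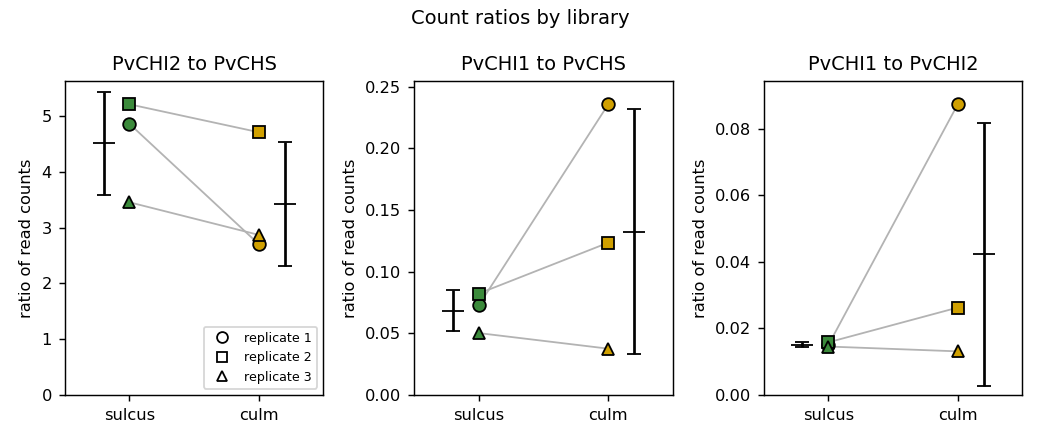
Ratios of read counts, not divided by unigene length, of PvCHI2 to PvCHS, PvCHI1 to PvCHS and PvCHI1 to PvCHI2 in each library, with markers and bars as in the plot of CPM by library. The ratio of PvCHI2 to PvCHS was lower in the culm in each pair, and the ratio of PvCHI1 to PvCHI2 was between 0.0145 and 0.0158 in the sulcus and up to 0.0873 in the culm.

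In culm replicate 1, PvCHI1 was 5.12 times the median of the other 5 libraries. Of all unigenes tested, 1.87% stood out in this library by at least as much, and 21.4% had their highest CPM in it. PvCHS was also highest in culm replicate 1, at 1.33 times the median of the others, whereas PvCHI2 was at 0.853 times. C4H, the cinnamate hydroxylase that makes coumarate, had a count of 193 in culm replicate 1 and between 6 and 25 in the other libraries. 4CL, the ligase that makes the coumaroyl-CoA used by chalcone synthase, had 126 there and between 12 and 50 elsewhere. Both unigenes thus had their highest value in the same library as PvCHS and PvCHI1. Of the other unigenes that the study places in the pathway, CCoAOMT and F3H were also highest there. PvPAL1, PvPAL2, PvPAL3, PvGL, CCR, C3H, F5H and HCT instead had their lowest CPM in this library. PvPAL1, for example, had 15850 CPM there and between 19492 and 28302 CPM elsewhere. What sets this library apart was not tested.

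For comparison, 15 other unigenes that the study places in the pathway were described, of which 14 passed the filter. They are not the whole of the study's list. Of these 14, 4 were higher and 10 lower in the culm, with a median log2 fold change of −0.10 against 0.0059 over all unigenes. At an unadjusted p under 0.05, edgeR passed 1 of the 14, 4CL, against 1.38% of all unigenes, and 0 had an adjusted p under 0.05. With the replicate block edgeR passed 4CL and C4H as higher and PvPAL3 and CCR as lower at an unadjusted p under 0.05, or 4 of the 14 against 7.82% of all unigenes, and the smallest adjusted p was 0.298 from edgeR. Among the 5 unigenes of the phenylpropanoid entry, C4H and 4CL had positive log2 fold changes (2.59 and 1.76 without the block), and the 3 phenylalanine ammonia-lyase unigenes, which make cinnamate from phenylalanine, had negative ones.

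The steps after naringenin gave no common direction. Of the 3 glycosyltransferase unigenes that the study sets after the isomerase, PvUF7GT had the higher CPM in the culm in each pair (log2 differences 0.15, 0.27 and 0.089). PvGL (−0.61, −0.030 and −0.090) and PvC12RT1 (−0.33, −0.24 and −0.57) were lower in each. Of all unigenes tested, 15.9% were higher in every pair and 13.6% lower. The difference of PvGL in pair 2 was near 0, and the signs under TMM scaling were not tested for these 3. None of the 3 had an unadjusted p under 0.05 from edgeR with or without the block. F3H, the flavanone hydroxylase that leads from naringenin to dihydroflavonols, had counts of 7, 1 and 1 in the sulcus and 11, 7 and 12 in the culm and did not pass the filter. The 6 unigenes of the lignin branch, which shares coumaroyl-CoA with chalcone synthase, had log2 fold changes between −0.50 for CCR, a cinnamoyl-CoA reductase, and 0.0086 for CCoAOMT, a methyltransferase.

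**Figure D4:**
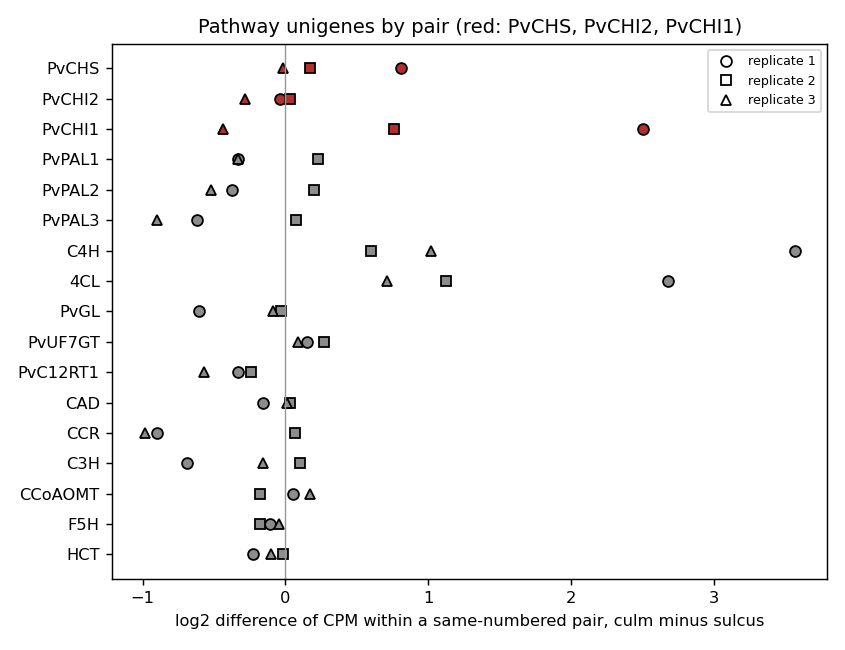
Log2 difference of CPM, culm minus sulcus, within each same-numbered pair for PvCHS, PvCHI2 and PvCHI1 (red) and the 14 other pathway unigenes that passed the filter (grey), with the marker showing the replicate number. PvCHI1 ranged from −0.44 to 2.5, and PvCHI2 stayed between −0.29 and 0.028. C4H, 4CL and PvUF7GT were above 0 in all 3 pairs, as were 15.9% of all unigenes tested.

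The unigenes of the pathway with the most similar pattern were sought through the log2 ratio of their CPM to that of each of the 3 unigenes. The measure was the SD of this log2 ratio over the 6 libraries. A small value means that the ratio stayed nearly constant. It can come from parallel changes or from levels that vary little in both unigenes, so it does not by itself show parallel changes. PvCHI2 was nearest to PvPAL1 (SD 0.28) and PvPAL2 (0.32), phenylalanine ammonia-lyases that were both lower in the culm in pairs 1 and 3 and higher in pair 2, as PvCHI2 was. The differences of PvCHI2 in pairs 1 and 2 were near 0 (−0.037 and 0.028), and the share of all unigenes with these signs was not computed. In the culm PvCHI2, PvPAL1 and PvPAL2 were highest in replicate 2. In the sulcus PvCHI2 was highest in replicate 2, but PvPAL1 and PvPAL2 in replicate 3. Of all unigenes tested, 20.8% were nearer to PvCHI2 than PvPAL1 was. PvCHS was nearest to CAD, a cinnamyl alcohol dehydrogenase of the lignin branch (SD 0.31, with 14.7% of all unigenes nearer), and to PvPAL1 (0.41). CAD varied little, with 1.33 times the lowest value in its highest library. Its log2 differences in pairs 1, 2 and 3 were −0.16, 0.032 and 0.013, against 0.81, 0.17 and −0.018 for PvCHS. CAD thus did not follow the difference of PvCHS in pair 1. The SD between PvCHS and PvCHI2 was also 0.41, and 37.5% of all unigenes were nearer to PvCHS. PvCHI1 was nearest to C4H (0.85) and CCoAOMT (0.87), with 6.44% of all unigenes nearer than C4H, and its SD to PvCHI2 was larger than that between PvCHS and PvCHI2. By this measure PvCHS, PvCHI2 and PvCHI1 thus lay no nearer to each other than many other unigenes did.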

How the data were processed

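The authors assembled the reads de novo with Trinity, grouped the contigs with Corset and deposited estimated counts per unigene, neither normalized nor filtered. Which tool counted the reads is not stated in the sources used here. In each library 10.7% to 12.5% of the values were not whole numbers.

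Counts were rounded and fitted over the whole table in R 4.3.3 with edgeR 4.0.16 (quasi-likelihood test, TMM, filterByExpr with a minimum count of 10, Benjamini-Hochberg adjustment), after a trial on simulated data. Calls needed an adjusted p below 0.05 together with a change beyond 1 on the log2 scale. Before taking log2 of CPM, 0.01 was added. DESeq2 1.42.0 (the study's tool), limma 3.58.1 (voom), other scalings and filters, unrounded counts, a robust dispersion, a replicate block and leaving out each library were the alternatives. The correlation across unigenes of deviations from the tissue mean was 0.714, 0.621 and 0.798 for the same-numbered libraries 1, 2 and 3. For libraries with unlike numbers it was between −0.632 and −0.0752. The deviations of a tissue sum to 0, so positive values for same-numbered libraries make negative values among the others unavoidable. The numbers were taken to pair the libraries because of the positive values. This pairing of the libraries comes from the values. For its qRT-PCR the study states that numbers stand for separate bamboos, and it calls the libraries biological replicates, but the labels name no plant for any of them, and p-values measure only the spread between these libraries.

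The unigenes named are the 3 chosen by identifier, the antenna unigenes, and the study's other pathway unigenes by role, with values for those under an unadjusted p of 0.05 or nearest in pattern. F3H, CCoAOMT, C3H, F5H, HCT, PvLhcb1.1, PvLhcb2 and the extremes of a group were named after their values were seen. All lists were chosen with earlier results of these data known. One further pathway unigene is not reported here.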

Additional observations from a re-analysis of the deposited data

How the results depend on the processing

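Leaving out 1 library at a time put the log2 fold change between 0.17 and 0.51 for PvCHS, between −0.29 and 0.033 for PvCHI2 and between 0.46 and 1.81 for PvCHI1, and the log2 ratio difference between −0.67 and −0.21 for PvCHI2 to PvCHS and between 0.023 and 1.35 for PvCHI1 to PvCHS, with pairs left out included. The counts of calls stayed at 0 in both directions in these fits. Over the 17 alternatives for each unigene, 0 of the 3 unigenes were called by edgeR, DESeq2 or limma voom, the smallest adjusted p was 0.656, and PvCHI1 had an unadjusted p under 0.05 in 3 of them (DESeq2, no filter, and without culm replicate 3). The direction of PvCHI2 turned in 1 alternative, without culm replicate 3, and that of PvCHS and PvCHI1 in none of the 17. Over all unigenes the calls moved from 0 to 10 higher and 18 lower with DESeq2, to 22 and 19 with the replicate block in edgeR, to 65 and 31 with the replicate block in DESeq2, and to 2 lower without the filter on low counts. The replicate block changed no call of the 3 unigenes. With the counts of PvCHI1 and PvCHI2 summed over PvCHS, in place of PvCHI1 alone, the difference turned to −0.38, since PvCHI2 holds most of the sum. The share of the sum of squares of PvCHS between replicate numbers was 21.7% with TMM scaling, and the cause was not tested. Depth was not varied, and the counting error of the 3 unigenes was between 0.687% and 7.0% of a count.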
